A study of Mus musculus with 14 samples.

Results

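The transcription factor gene Atf4 and 9 genes known as its targets were followed in cultured mouse BFU-E, burst-forming progenitors at the start of the red cell lineage. The genes were taken by symbol and were Atf4, Ddit3, Trib3, Chac1, Asns, Sesn2, Atf5, Cebpg, Ddit4 and Nupr1. All 10 were listed in both sets of libraries, among 22300 symbols that the sets had in common, and all 10 passed the filter of a mean of at least 1 FPKM (fragments scaled to gene length and library size). The BFU-E came from fetal liver of C57BL/6 mice, and RNA was sequenced from 4 groups of 3 libraries each. In the first, the OB set, cells cultured with compound OB at 100 µM stand against OB DMSO, cells cultured with the solvent alone. In the other, the PD set, cells cultured with compound PD at 3 nM stand against PD DMSO, a separate group of solvent controls. No source used here gives the fetal age, the time in culture or the number of animals pooled. The series also lists 2 chromatin samples (CREB immunoprecipitation and input), which are not analysed here.

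ATF4 is the main transcription factor of the integrated stress response. Kinases that sense uncharged tRNA (GCN2), unfolded protein in the endoplasmic reticulum (PERK) or heme shortage (HRI, the form most used by erythroid cells) phosphorylate the translation factor eIF2α, which lowers translation in general and raises that of Atf4 mRNA. ATF4 protein then turns on genes that supply amino acids and genes that adjust growth and survival, so its activity can change while its own mRNA does not.

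ATF4 binds DNA with C/EBP proteins at a composite site, the C/EBP-ATF response element, whose core was searched here as TGATGNAA on both strands from 250 bases before to 50 bases after each gene's start. All 10 genes matched RefSeq entries of GRCm38.p6, with 2 start sites for Atf5. The core was present for 4 of the 10 genes, namely Trib3, Chac1, Asns and Nupr1, and in 3.97% of 32851 such windows of the genome. The stricter form TGATGCAA, which is part of the same search and so overlaps it fully, was present for Chac1 and Nupr1 and in 0.895% of windows. The palindrome TGACGTCA, the cAMP response element that CREB binds, was present for 0 of the 10 and in 1.79% of windows. These are matches of letters, with no binding data used. Chac1 and Nupr1 are shown because they carry the stricter form and Asns because the amino acid response site was worked out in its human counterpart. Each stretch of 60 bases runs 5′ to 3′ on the strand of the gene, with the core in capitals, and lies on GRCm38.p6 at chr2:119351023-119351082 on the plus strand for Chac1, at chr6:7693210-7693269 on the minus strand for Asns and at chr7:126625547-126625606 on the minus strand for Nupr1.
Chac1: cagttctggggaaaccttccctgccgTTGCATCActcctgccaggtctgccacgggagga
Asns: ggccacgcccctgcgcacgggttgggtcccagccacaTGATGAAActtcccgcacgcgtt
Nupr1: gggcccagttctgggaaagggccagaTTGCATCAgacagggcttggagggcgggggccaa
Counted from the start site, the core spans positions -193 to -186 in Chac1, -23 to -16 in Asns and -110 to -103 in Nupr1, reading on the opposite strand in Chac1 and Nupr1. In Trib3 the match lay after the start, at positions 14 to 21.

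Before any comparison, PD DMSO replicate 1 stood apart over the whole table. In it 9.08% of 11905 genes lay more than 1 log2 unit from the mean of the other 2 libraries of the group, against 3.76% and 4.73% in PD DMSO replicates 2 and 3. For compound PD replicate 1 the share was 3.44%, against 1.55% and 1.77% in the other compound PD libraries. On the 10 genes it lay at a median of -0.61 log2 units from the other 2 libraries of its group, and PD DMSO replicate 1 at 0.59. In the OB set the share was 5.32% of 10073 genes in OB DMSO replicate 1 and at most 1.43% elsewhere. Early erythroid markers were all present, with 9 of 9 listed (Kit, Gata1, Gata2, Klf1, Epor, Tfrc, Tal1, Myb and Gfi1b) and a summed level of 1377 to 1409 FPKM in compound OB, 1347 to 1493 FPKM in OB DMSO, 1024 to 1141 FPKM in compound PD and 1169 to 1365 FPKM in PD DMSO. Their presence alone does not show the stage of the cells. Markers of granulocyte precursors and neutrophils (10 of 10 listed, none at 0) summed to 29091 to 36560 FPKM in compound PD and 11368 to 17194 FPKM in PD DMSO, above the early erythroid sum in every library of that set. The same sum in the OB set was 483, 164 and 179 FPKM in compound OB replicates 1, 2 and 3, and 578, 146 and 144 FPKM in OB DMSO replicates 1, 2 and 3. Megakaryocyte markers (7 of 7 listed) gave 966, 576 and 618 FPKM in compound OB and 1356, 478 and 562 FPKM in OB DMSO, where replicate 1 was just above its early erythroid sum of 1347 FPKM. The PD set had 4215 to 7485 FPKM in compound PD and 2300 to 4558 FPKM in PD DMSO, and mast cell and basophil markers (8 of 8, with no marker of either list at 0 in all 6 libraries) 931 to 2051 FPKM in compound PD and 622 to 1225 FPKM in PD DMSO. Macrophage (C1qb and C1qc at 0 in the OB set), hepatocyte, lymphoid, and endothelial and stromal markers summed to at most 30.7 FPKM in any library. In bulk RNA, fewer cells of a type and less RNA per cell cannot be told apart. The labels do not say whether replicates came from separate cultures or animals, so each p-value speaks of the spread between these libraries alone.

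By mean FPKM, which is scaled to gene length, Atf4 was the most abundant of the 10 genes in each of the 4 groups and Chac1 the least. Atf4 averaged 496 ± 34.2 FPKM in compound OB and 444 ± 55.6 FPKM in OB DMSO, and 307 ± 10.9 FPKM in compound PD and 363 ± 50.8 FPKM in PD DMSO (SD, n = 3 each). Asns came next in both groups of the OB set, and its range overlapped that of Atf4. Ddit3 followed there, at means of 244 FPKM in compound OB and 217.5 FPKM in OB DMSO, without overlap with its neighbours. In the PD set Ddit3 came next and Asns after it, with the ranges of these 2 genes overlapping in both groups. Trib3 and Atf5 held the following places with overlapping ranges in all 4 groups, and Sesn2, Nupr1, Ddit4 and Cebpg filled those above Chac1. The largest spread between libraries of a group was that of Sesn2, whose highest library was 2.80 times its lowest in OB DMSO, and of Atf5, at 2.66 times in PD DMSO. Trib3 was the steadiest in compound OB, at 1.05 times.

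**Figure D1:**
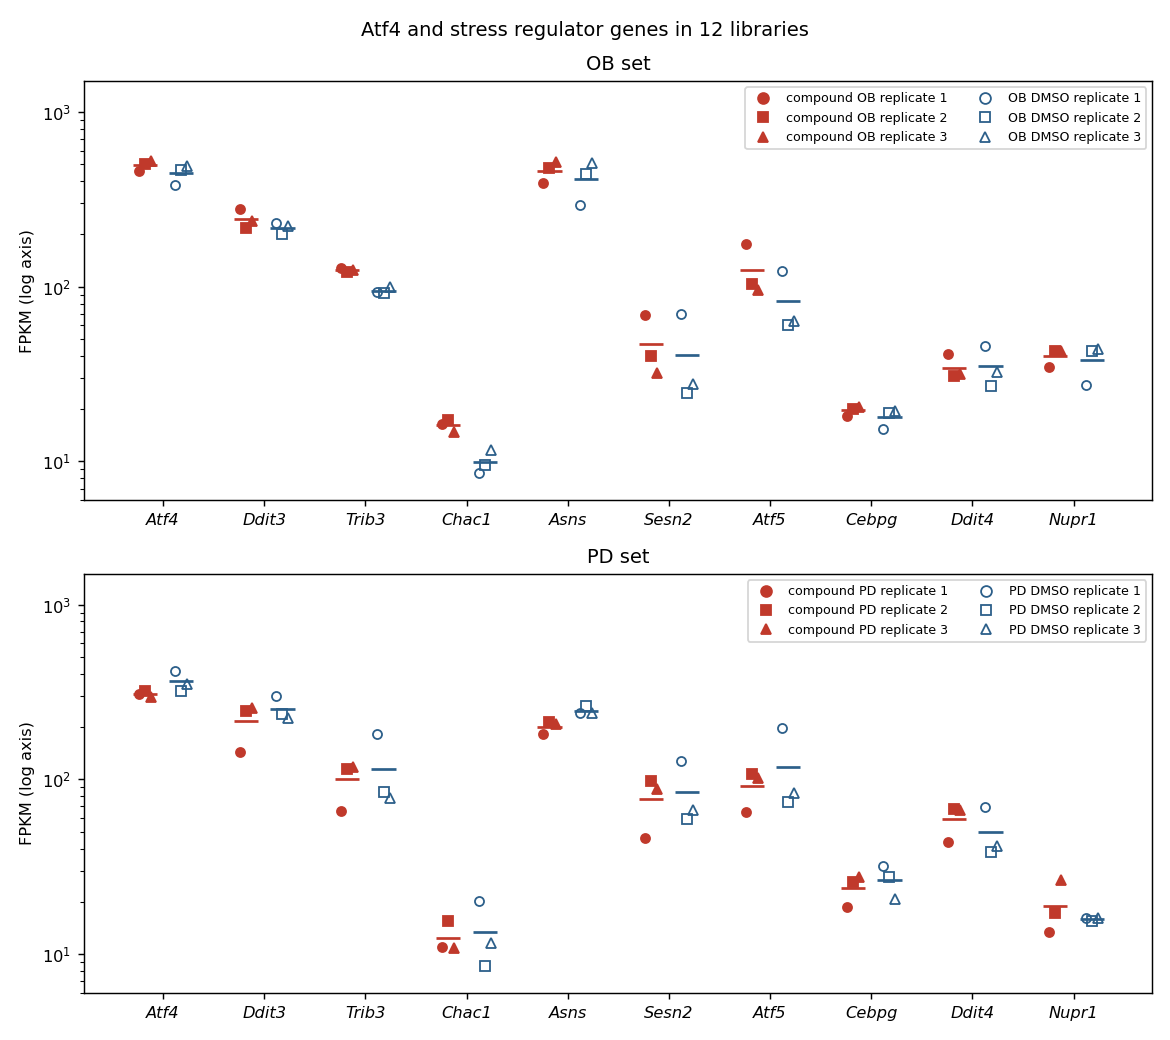
FPKM (log axis) of each gene in the 12 libraries, the OB set above and the PD set below, with compound libraries filled and DMSO libraries open and a line at each group's mean. Below, the circles (replicate 1) lie at opposite ends, with PD DMSO replicate 1 the highest of its group for 8 of 10 genes and compound PD replicate 1 the lowest of its group for 8 of 10.

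With compound OB, 9 of the 10 genes had a positive mean difference from OB DMSO, the largest being those of Chac1, Atf5 and Trib3. None passed the threshold of an adjusted p of 0.05 in limma with Benjamini-Hochberg adjustment, where 0 of 10073 genes tested passed (0%). At an unadjusted p under 0.05 there were 372 genes (3.69%), among them 2 of the 10. The median log2 difference was 0.17 over the 10 genes and 0.03 over all genes tested, of which 58.73% were above 0. Chac1 and Trib3 were the 2 genes whose compound OB libraries all lay above every OB DMSO library, a pattern that 5.31% of genes tested showed.

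Among the effectors, Chac1 encodes an enzyme that breaks down glutathione. It had 16.5, 17.3 and 14.7 FPKM in compound OB replicates 1, 2 and 3, against 8.56, 9.59 and 11.6 FPKM in OB DMSO replicates 1, 2 and 3. The groups did not overlap, and the log2 difference was 0.66 (SE 0.14, 95% confidence interval 0.34 to 0.98, limma adjusted p = 0.588). Replicates are given in this order from here on. Trib3 encodes a pseudokinase that binds ATF4 and AKT and restrains both. Trib3 had 127, 122 and 124 FPKM in compound OB, against 92.9, 91.3 and 99.3 FPKM in OB DMSO. Every compound OB library was above every control, by 0.39 on the log2 scale (SE 0.08, 95% confidence interval 0.21 to 0.58, limma adjusted p = 0.547). Asns encodes asparagine synthetase, a standard readout of ATF4 activity when amino acids are short. Asns had 390.1, 474 and 513 FPKM in compound OB, against 294, 439.8 and 510.5 FPKM in OB DMSO. Replicate 1 was the lowest of both groups, the groups overlapped, and the log2 difference was 0.17 (SE 0.21), or -0.05 without OB DMSO replicate 1. Within the numbers the difference was 0.41, 0.11 and 0.008.

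Among the transcription factors, Atf4 itself had 459, 504 and 526 FPKM in compound OB, against 381, 464 and 487 FPKM in OB DMSO. The groups overlapped, with a log2 difference of 0.17 (SE 0.11, 95% confidence interval -0.10 to 0.43, limma adjusted p = 0.9998). Atf5 encodes a related bZIP factor that is itself regulated through eIF2α. Atf5 had 174, 104 and 95.8 FPKM in compound OB, against 123.5, 60.7 and 63.7 FPKM in OB DMSO. Replicate 1 was the highest of both groups, so the groups overlapped although each compound OB library lay above the control of its own number, by 0.50, 0.77 and 0.58 on the log2 scale. Granulocyte and megakaryocyte marker sums were also highest in replicate 1 of both groups, and their part in these values was not tested. Ddit3 encodes CHOP, a bZIP factor linked to cell death in lasting stress. Ddit3 had 278, 218 and 238 FPKM in compound OB, against 232, 199 and 221 FPKM in OB DMSO, which overlapped. Cebpg encodes a C/EBP factor that pairs with ATF4. Cebpg had 18.1, 20.1 and 20.6 FPKM in compound OB, against 15.2, 18.9 and 19.4 FPKM in OB DMSO, again with overlap. Nupr1 encodes a small stress-induced nuclear protein. Nupr1 had 34.7, 42.8 and 42.7 FPKM in compound OB, against 27.3, 42.9 and 44.1 FPKM in OB DMSO, and its difference of 0.10 was -0.12 without OB DMSO replicate 1.

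Sesn2 and Ddit4 (REDD1) encode inhibitors of the growth kinase complex mTORC1. Sesn2 had 69.0, 40.2 and 32.1 FPKM in compound OB, against 69.3, 24.8 and 27.7 FPKM in OB DMSO. Replicate 1 was far above the others in both groups, and the log2 difference of 0.29 (SE 0.44) was -0.015 without compound OB replicate 1. Without replicate 1 of both groups it was 0.44 (SE 0.10, limma adjusted p = 3.13e-04), in a fit that called 17.8% of all genes. That SE came from a spread shared over genes and does not measure the spread of Sesn2 itself. Its highest libraries were those with the highest granulocyte and megakaryocyte sums, whose part was not tested. Ddit4 had 40.9, 30.8 and 31.5 FPKM in compound OB, against 46.0, 26.9 and 32.7 FPKM in OB DMSO. It was the only gene of the 10 with a difference below 0, at -0.008 (SE 0.21), and took either sign when single libraries were left out.

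Libraries of the OB set with the same replicate number varied together, mainly replicate 1 against replicates 2 and 3, which were hardly told apart from each other. A fit with the replicate number as a block removed that variation. It called 7 of 10073 genes (0.0695%) and still none of the 10, although 5 of the 10 then had an unadjusted p under 0.05, as had 14.9% of all genes tested. Atf5, at a log2 difference of 0.61 in both fits, had an SE of 0.07 with the block and 0.33 without it (limma adjusted p = 0.0718 with the block). The block gave adjusted p-values of 0.0937 for Trib3 and 0.163 for Chac1. With the block and median-ratio scaling of the libraries together, a setting added after seeing the data, limma called 104 genes (1.03%) and among them Trib3 (adjusted p = 0.0465) and Atf5 (adjusted p = 0.00603). Leaving replicate 1 out of both groups, likewise added, called 1773 of 9967 genes (17.8%, and 15.4% as higher), with Atf5, Chac1, Sesn2 and Trib3 among them. That fit had 2 libraries a group and 2 residual degrees of freedom for each gene, and the 4 genes are read against that share of calls. In it the SE of the 10 genes ran only from 0.101 to 0.110, since limma drew them to a spread shared over genes. Its p-values therefore do not measure the spread of each gene between its own libraries. Within the replicate numbers, 7 of the 10 genes (Atf4, Ddit3, Trib3, Chac1, Asns, Atf5 and Cebpg) were higher with compound OB in all 3. Taken singly, 41.55%, 67.89% and 54.05% of all genes tested were higher in replicates 1, 2 and 3. The share of all genes higher in all 3 was not counted.

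With compound PD and all 6 libraries, 8 of the 10 genes had a negative mean difference from PD DMSO, and none passed the threshold. Over all genes, limma called 4 of 11905 (0.0336%), 2 higher and 2 lower, and 1269 (10.7%) had an unadjusted p under 0.05, with 0 of the 10 genes among them. The median log2 difference was -0.14 over the 10 genes and 0.06 over all genes tested, of which 59.07% were above 0. Atf4 and Asns were the 2 genes whose compound PD libraries all lay below every PD DMSO library, a pattern of 3.71% of genes tested. The other 8 overlapped.

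Atf4 had 308, 318 and 296 FPKM in compound PD, against 419, 320.4 and 349 FPKM in PD DMSO. The groups did not overlap, although compound PD replicate 2 and PD DMSO replicate 2 were almost level, and the log2 difference was -0.23 (SE 0.14, 95% confidence interval -0.55 to 0.09, limma adjusted p = 0.669). Asns had 182, 213 and 206 FPKM in compound PD, against 239.9, 262 and 240.0 FPKM in PD DMSO. All compound PD libraries were below all controls, with a log2 difference of -0.30 (SE 0.14, 95% confidence interval -0.61 to 0.004, limma adjusted p = 0.473).

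The other genes were divided by replicate 1. Trib3 had 66.2, 115 and 118 FPKM in compound PD, against 180.5, 84.8 and 78.0 FPKM in PD DMSO. The lowest library of the 6 was compound PD replicate 1 and the highest PD DMSO replicate 1, while the remaining libraries had compound PD above PD DMSO. Sesn2 had 46.3, 97.8 and 88.1 FPKM in compound PD, against 127, 59.1 and 66.9 FPKM in PD DMSO. Atf5 had 64.6, 107 and 101 FPKM in compound PD, against 197, 73.9 and 83.1 FPKM in PD DMSO. Both genes repeated the order of Trib3, with replicate 1 libraries at the outer ends and reversed. Ddit4 had 44.1, 67.5 and 66.6 FPKM in compound PD, against 69.4, 38.6 and 41.4 FPKM in PD DMSO. Ddit3 had 142, 247 and 256 FPKM in compound PD, against 298, 235 and 225 FPKM in PD DMSO. For both, replicates 2 and 3 lay above their controls with compound PD, and replicate 1 lay below. Chac1 had 10.9, 15.4 and 10.8 FPKM in compound PD, against 20.1, 8.51 and 11.6 FPKM in PD DMSO. Cebpg had 18.7, 25.8 and 27.5 FPKM in compound PD, against 31.8, 27.8 and 20.6 FPKM in PD DMSO. Chac1 was higher with compound PD in replicate 2 alone, and Cebpg in replicate 3 alone. Nupr1 had 13.4, 17.1 and 26.4 FPKM in compound PD, against 16.2, 15.5 and 16.2 FPKM in PD DMSO, where its controls hardly varied.

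**Figure D2:**
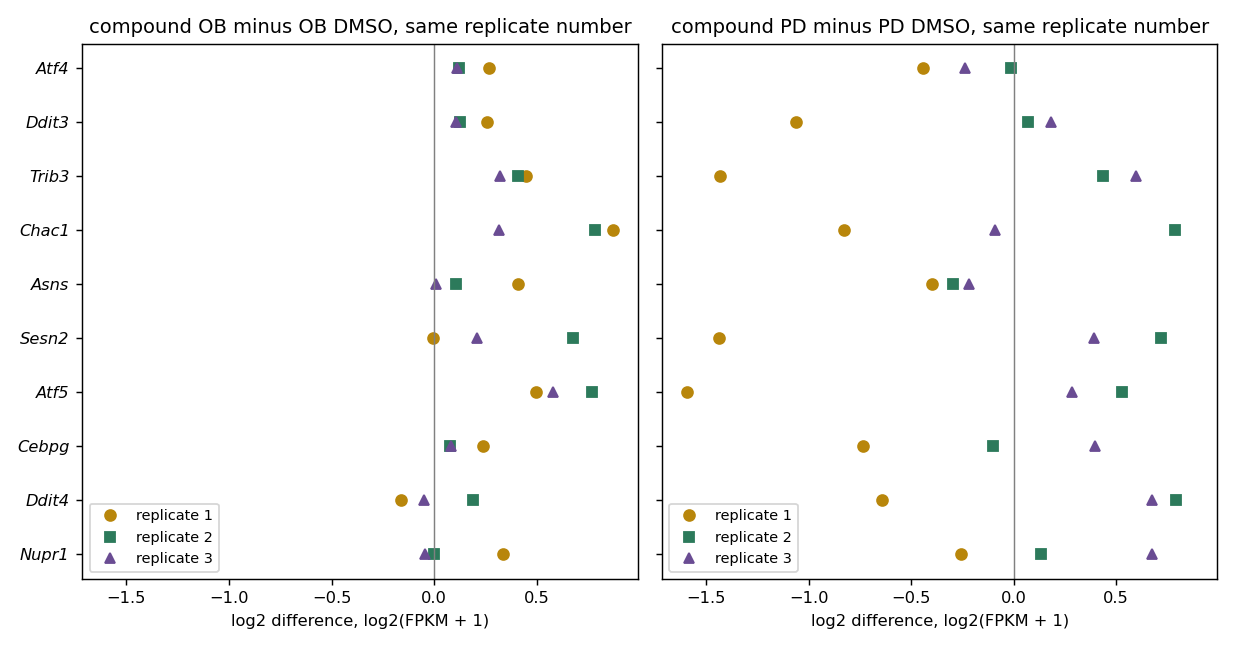
Difference in log2(FPKM + 1) between the compound and DMSO libraries that share a replicate number, for each gene, in the OB set (left) and the PD set (right). On the right all 10 circles (replicate 1) lie left of 0, and 7 of 10 squares and 7 of 10 triangles (replicates 2 and 3) lie right of it, while on the left 8, 9 and 8 of 10 lie right of 0.

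Set side by side by number, all 10 genes were lower in compound PD replicate 1 than in PD DMSO replicate 1, with a median difference of -0.78 on the log2 scale. In replicates 2 and 3, 7 of the 10 were higher with compound PD, with medians of 0.29 and 0.34. Over all 11905 genes the share that was higher with compound PD was 74.5%, 46.7% and 44.6% in replicates 1, 2 and 3, so the 10 genes and the whole table leaned to opposite sides in all 3 numbers. For compound OB the medians of the 10 genes were 0.30, 0.16 and 0.11 in replicates 1, 2 and 3. Over all 10073 genes of that set they were -0.025, 0.108 and 0.016. The PD numbers did not mark libraries that varied together, so these pairs are a description.

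When replicate 1 was left out of both groups, a setting added after seeing the data, 8 of the 10 genes had a positive difference between compound PD and PD DMSO, with a median of 0.38 over the 10 genes and -0.05 over all genes tested. Of all genes tested 43.33% were above 0. Ddit4 was at 0.73 on the log2 scale (SE 0.10, limma adjusted p = 0.0253) and Trib3 at 0.52 (SE 0.09, limma adjusted p = 0.0489). These were 2 of the 252 genes called of 11905 (2.12%, and 1.72% as higher), in a fit of 2 libraries a group. The libraries left out were the highest control for 8 of the 10 genes and the lowest compound PD library for 8 of 10, Ddit4 and Trib3 among both. Leaving them out raised such differences by construction, so these signs and calls are a description and no support. Sesn2 at 0.55 (adjusted p = 0.0672), Atf5 at 0.41 (adjusted p = 0.103), Nupr1 at 0.40, Chac1 at 0.35, Cebpg at 0.15 and Ddit3 at 0.13 did not pass in limma. Atf4 and Asns stayed below 0, at -0.12 (SE 0.08, adjusted p = 0.449) and -0.26 (SE 0.08, adjusted p = 0.155). Leaving out compound PD replicate 1 alone gave 7 of 10 positive differences, and leaving out PD DMSO replicate 1 alone gave 6 of 10. Leaving out any other single library of the PD set gave 2 of 10, as with all 6.

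**Figure D3:**
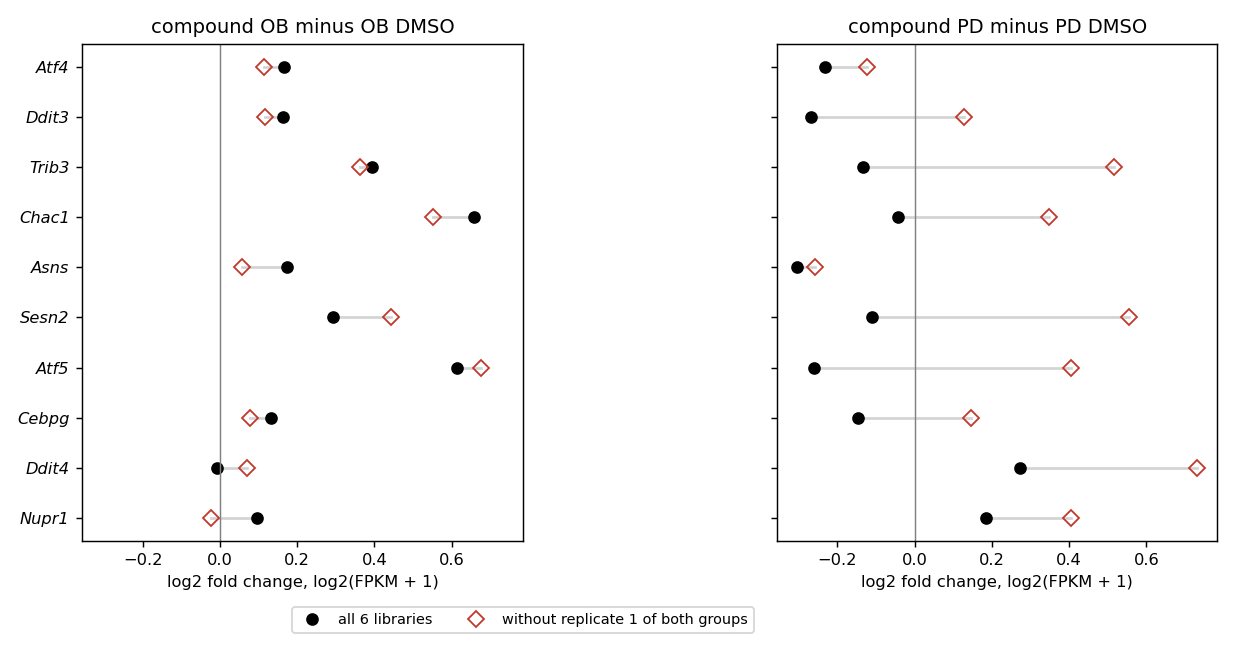
Log2 difference in log2(FPKM + 1) of each gene with all 6 libraries (filled) and without replicate 1 of both groups (open), for compound OB (left) and compound PD (right). On the right 6 genes cross 0 (Ddit3, Trib3, Chac1, Sesn2, Atf5 and Cebpg) and Atf4 and Asns do not, while on the left Ddit4 and Nupr1, both near 0, cross it.

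Late erythroid markers had the replicate 1 libraries of the PD set at their ends, as Trib3 had. The sum over Slc4a1, Alas2, Epb42 and Hemgn (4 of 4 listed, none at 0) was 763, 1270.1 and 1229 FPKM in compound PD, against 2960.4, 1019 and 1006 FPKM in PD DMSO. Replicate 1 held the lowest and the highest library and the order was the other way round in replicates 2 and 3. Of the 4, 3 were listed in the OB set, and their sum was 996, 822 and 801 FPKM in compound OB, against 771, 719.8 and 807 FPKM in OB DMSO. Granulocyte markers kept one order in the PD set, since each compound PD library (29091, 30137 and 36560 FPKM) was above each PD DMSO library (11368, 17194 and 16349 FPKM). The part of either cell type in the values of the 10 genes was not tested.

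The 2 compounds' effects were also subtracted in one limma fit of the 12 libraries, as the OB effect minus the PD effect. Compound, dose and set go together, so a difference between compounds cannot be told apart from one between sets. Of 9265 genes, 0 passed (0%) and 509 (5.49%) had an unadjusted p under 0.05. Atf4 was the only one of the 10 among these, at 0.40 (SE 0.18, 95% confidence interval 0.01 to 0.78, limma adjusted p = 0.895). The difference was positive for 8 of the 10, with a median of 0.42 beside 0.0013 over all genes tested, and negative for Ddit4 and Nupr1. The genes were chosen with earlier results on these opposed effects known, so this lean is a description and no support. Atf5 had the largest, at 0.87 (SE 0.54), then Chac1 at 0.70 (SE 0.35), Trib3 at 0.53 (SE 0.39) and Asns at 0.48 (SE 0.25).

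When replicate 1 of the PD set was left out, also added after seeing the data, the difference was positive for 5 of the 10 genes, with a median of 0.01. Over all genes tested 63.97% were above 0, with a median of 0.11, so the median of the 10 lay below that of the whole table. Limma called 4 of 9268 genes (0.0432%) and none of the 10. Asns at 0.43 (SE 0.29) and Atf4 at 0.29 (SE 0.16) were still above 0. Trib3 was then at -0.12, Sesn2 at -0.26 and Cebpg at -0.016. For these genes the libraries left out were the highest control and the lowest compound PD library, which lowered the difference by construction. Ddit4 was at -0.74 (SE 0.29, unadjusted p = 0.0275, limma adjusted p = 0.350), the largest in size of the 10, with an effect of 0.73 for compound PD in the fit without replicate 1 and of -0.008 for compound OB.

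**Figure D4:**
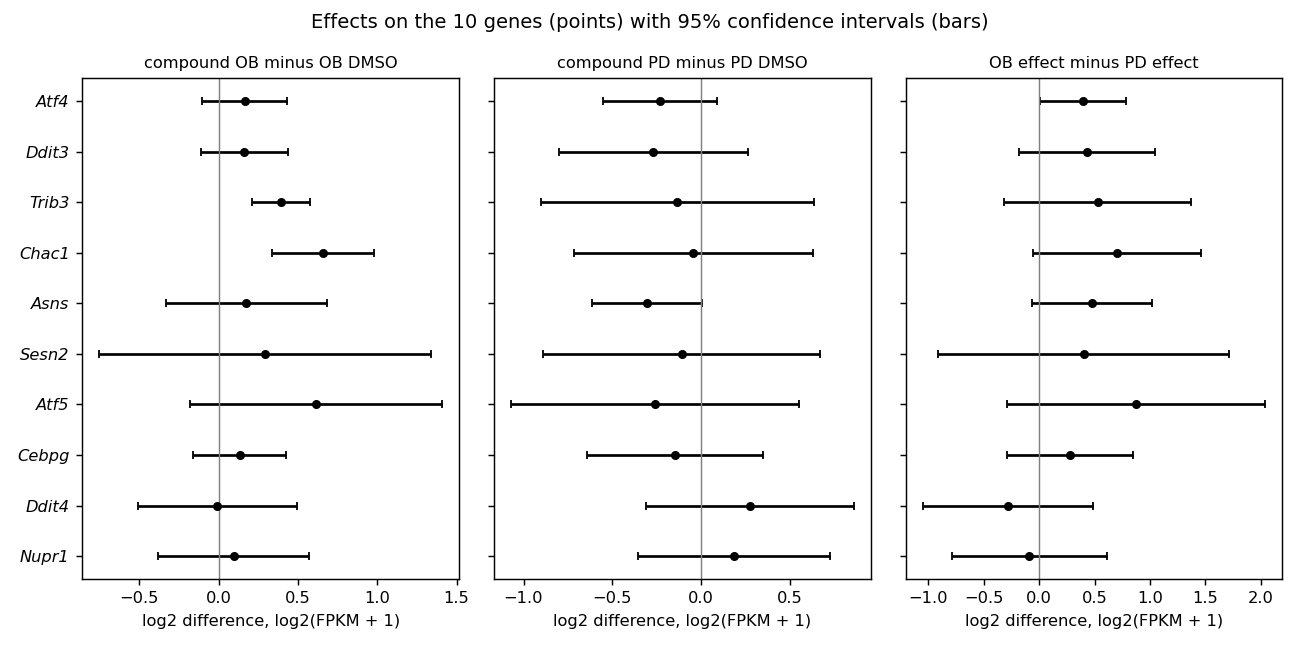
Log2 difference in log2(FPKM + 1) with its 95% confidence interval (bars) for each gene, for compound OB minus OB DMSO (left), compound PD minus PD DMSO (middle) and the OB effect minus the PD effect (right). With all libraries the intervals of Trib3 and Chac1 in the OB set and of Atf4 in the difference lie above 0, and no interval of the PD set excludes 0.

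The wider pathway was read from gene lists. With compound OB, all 12 tested enzymes of amino acid synthesis and one-carbon metabolism, all 10 amino acid transporters and all 13 aminoacyl-tRNA synthetases (with the tRNA exporter Xpot) had positive differences, with medians of 0.31, 0.43 and 0.21 on the log2 scale, and none passed in limma. Over all genes tested 58.73% were above 0, with a median of 0.03. With the replicate block and median-ratio scaling together (1.03% of all genes called), the transporters Slc1a5, Slc3a2, Slc7a1, Slc7a3 and Slc7a5 and the enzymes Pck2 and Shmt2 rose. Without replicate 1 of both groups (17.8% of all genes called), 8 of 10 transporters, 7 of 12 enzymes and 2 of 13 of the synthetase list (Wars and Xpot) rose. Pck2, which makes phosphoenolpyruvate in mitochondria, had 62.5, 63.3 and 57.7 FPKM in compound OB, against 38.9, 39.0 and 41.7 FPKM in OB DMSO. Shmt2, the mitochondrial serine hydroxymethyltransferase, had 287, 279 and 255 FPKM in compound OB, against 203, 183 and 195 FPKM in OB DMSO. Neither gene's groups overlapped, with log2 differences of 0.60 (SE 0.09, limma adjusted p = 0.330) and 0.50 (SE 0.08, limma adjusted p = 0.495). With the block alone the adjusted p was 0.0718 for both, and with block and median-ratio scaling 0.0150 and 0.0144. Slc7a3, a carrier of cationic amino acids, had 8.38, 12.7 and 14.7 FPKM in compound OB, against 1.22, 2.35 and 4.38 FPKM in OB DMSO. Its log2 difference was 1.88 (SE 0.35, limma adjusted p = 0.495), and with the replicate block it rose (adjusted p = 0.0173). Slc1a5, a glutamine carrier, was at 0.45 (SE 0.09), and Slc3a2, the partner chain of several amino acid exchangers, at 0.45 (SE 0.09), both without overlap. Aldh18a1, of proline synthesis, was at 0.33 (SE 0.10), likewise without overlap. Among the synthetases, Gars, Aars and Cars were at 0.24, 0.22 and 0.23, again without overlap. Of all genes tested 5.31% had every compound OB library above every control. The genes given with values were those with the smallest p of their lists, a choice that favours groups without overlap.

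In the PD set the same lists leaned the other way. Of the enzymes 11 of 12 were below 0 (median -0.20), of the transporters 8 of 10 (median -0.13) and of the synthetases 13 of 13 (median -0.19), and none passed in limma. Over all genes tested 59.07% were above 0, with a median of 0.06. Mthfd2, a mitochondrial one-carbon enzyme, had 108, 128 and 131 FPKM in compound PD, against 153, 152 and 163 FPKM in PD DMSO. Shmt2 had 149.9, 161 and 163 FPKM in compound PD, against 167, 197 and 206 FPKM in PD DMSO. Neither overlapped, with log2 differences of -0.35 (SE 0.14, limma adjusted p = 0.427) and -0.26 (SE 0.14, limma adjusted p = 0.610). Eprs and Nars, synthetases for glutamate with proline and for asparagine, were at -0.24 (SE 0.14) and -0.20 (SE 0.13) without overlap, and Aars, for alanine, at -0.39 (SE 0.18) with overlap. Of all genes tested 3.71% had every compound PD library below every control, and these genes too were chosen by the smallest p of their lists. Gpt2, a transaminase, was at -0.51 (SE 0.33), and the carriers Slc43a1 and Slc1a5 were at -0.53 (SE 0.28) and -0.30 (SE 0.20), all with overlap. Slc38a2, a carrier of small neutral amino acids, went against its list at 0.19 (SE 0.15). With replicate 1 left out, 10 of 12 enzymes (median -0.28) and 13 of 13 synthetases (median -0.22) were still below 0, and the transporters were divided, with 6 of 10 below 0 (median -0.015). Over all genes tested 43.33% were above 0 there, with a median of -0.05. Asns was below 0 with these enzymes in both settings, while Trib3, Sesn2 and Atf5 were above 0 without replicate 1 and Ddit4 above 0 in both.

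The OB effect minus the PD effect was above 0 for 12 of 12 enzymes (median 0.49), 9 of 10 transporters (median 0.57) and 13 of 13 synthetases (median 0.40), and none passed in limma. Over all genes tested 50.08% were above 0, with a median of 0.001. Pck2 and Shmt2 were at 0.86 (SE 0.19) and 0.76 (SE 0.17), with a limma adjusted p of 0.347 for both, and Pycr1, of proline synthesis, at 0.86 (SE 0.30). Slc7a3, at 1.2, 1.2 and 1.12 FPKM in compound PD, against 1.7, 5.61 and 0.39 FPKM in PD DMSO, had a difference of effects of 2.31 (SE 0.64, limma adjusted p = 0.677). Slc3a2 and Slc1a5 were at 0.55 (SE 0.17) and 0.75 (SE 0.23), and Aars, Gars and Wars at 0.61, 0.40 and 0.52. When replicate 1 of the PD set was left out, the counts above 0 were again 12, 9 and 13, with medians of 0.64, 0.41 and 0.35. The whole table also moved up in that setting, with 63.97% of all genes tested above 0 and a median of 0.11. The 3 lists and the 10 genes thus gave different counts in that setting, 5 of 10 for the genes, and the difference between those counts was not tested.

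**Figure D5:**
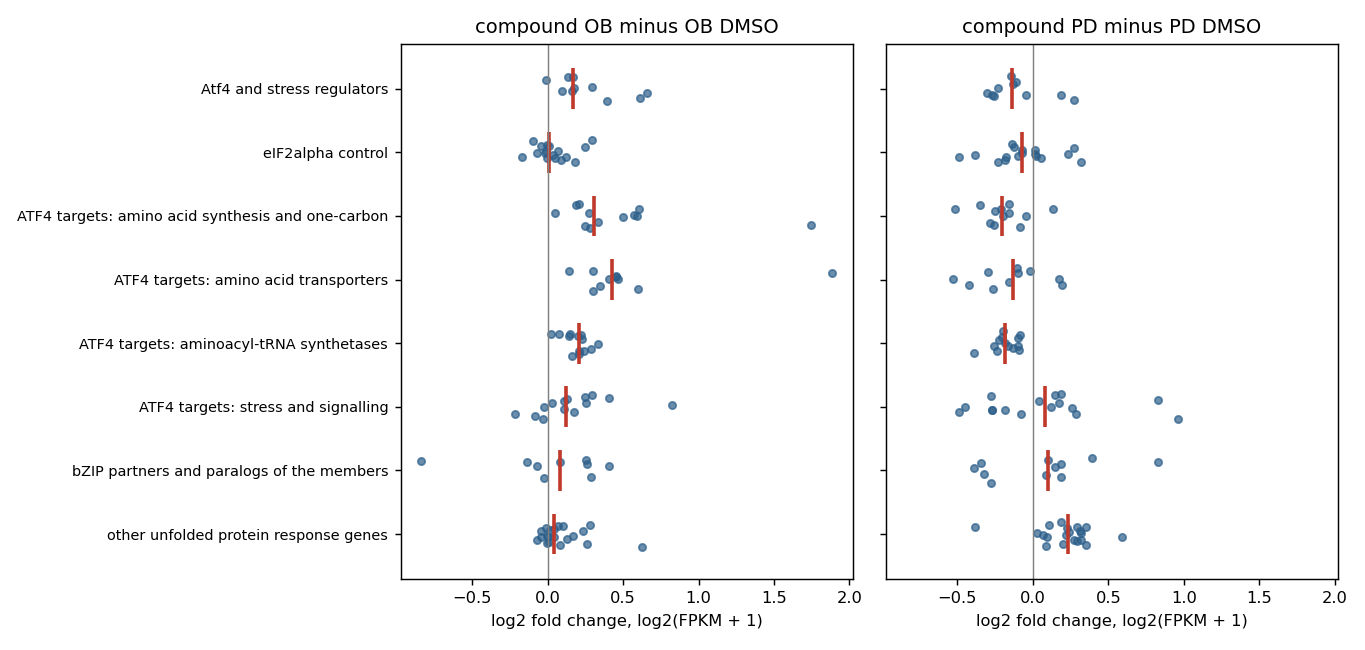
Log2 difference in log2(FPKM + 1) of every tested gene (points) of the 10 genes and of 7 pathway lists, with the median of each list (red line), for compound OB (left) and compound PD (right), all 6 libraries of each set. The medians of the enzyme, transporter and synthetase lists lie above 0 with compound OB (0.31, 0.43 and 0.21) and below 0 with compound PD (-0.20, -0.13 and -0.19).

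Over 17 tested genes for eIF2α kinases, phosphatase subunits, eIF2 and eIF2B, the medians were 0.01 with compound OB (9 above 0) and -0.07 with compound PD (7 above 0), and none passed in limma. Over all genes tested the shares above 0 were 58.73% and 59.07% (medians 0.03 and 0.06). Without replicate 1 of both groups the median with compound PD was -0.24, with 12 of 17 below 0, beside -0.05 over all genes tested, of which 43.33% were above 0. The interferon-induced kinase gene Eif2ak2 had 9.83, 10.2 and 10.8 FPKM in compound OB, against 11.2, 11.8 and 12.1 FPKM in OB DMSO, without overlap, as for 3.42% of genes in that direction (log2 difference -0.17, SE 0.10). Gcn1l1, which activates GCN2, and Eif2b2, a subunit of the exchange factor eIF2B, were at 0.29 (SE 0.18) and 0.18 (SE 0.12) with overlap. They passed without replicate 1 of both groups, at 0.44 (limma adjusted p = 4.42e-04) and 0.28 (adjusted p = 0.0398), as did Ppp1r15a (GADD34) at 0.27 (adjusted p = 0.0450). These were 3 of 17, in a fit that called 17.8% of all genes tested and whose p-values, as for the 10 genes, draw on a spread shared over genes. There 12 of 17 were above 0, with a median of 0.03, beside 62.9% and 0.06 over all genes tested. Ppp1r15a, which reverses eIF2α phosphorylation and is itself an ATF4 target, had 135, 191 and 144 FPKM in compound PD, against 258, 203 and 197 FPKM in PD DMSO. Every compound PD library was below every control, as for 3.71% of genes tested, by a log2 difference of -0.49 (SE 0.18, limma adjusted p = 0.372). Its difference was -0.27 with replicate 1 left out of both groups. In that fit, which called 2.12% of all genes, Eif2s3x, a subunit of eIF2, fell by 0.54 on the log2 scale (limma adjusted p = 0.0258).

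Other stress targets were mixed, with 10 of 14 tested above 0 in the OB set (median 0.12) and 9 of 16 in the PD set (median 0.08), none past the threshold in limma. Over all genes tested the shares above 0 were 58.73% and 59.07% (medians 0.03 and 0.06). With compound OB, Herpud1, a protein of endoplasmic reticulum degradation, was at 0.29 (SE 0.09) and the secreted hormone Stc2 at 0.82 (SE 0.31), both without overlap. The general stress factor Atf3 was at 0.26 (SE 0.12), also without overlap, as for 5.31% of genes tested in that direction. Stc2 rose with the replicate block and median-ratio scaling (limma adjusted p = 0.0288). Without replicate 1 of both groups Atf3, Cebpb, Herpud1, Ppp1r15a and Stc2 rose and Ero1l fell, in a fit that called 17.8% of all genes. There 11 of 14 were above 0 (median 0.13), beside 62.9% of all genes tested (median 0.06). With compound PD, Jdp2, a bZIP repressor, had 17.1, 15.6 and 14.8 FPKM in compound PD, against 6.33, 8.11 and 8.61 FPKM in PD DMSO. Cebpd, a C/EBP factor of myeloid cells, had 8.34, 6.61 and 7.18 FPKM in compound PD, against 2.73, 4.71 and 3.89 FPKM in PD DMSO. Neither overlapped, as for 13.1% of genes in that direction, with log2 differences of 0.96 (SE 0.19, limma adjusted p = 0.137) and 0.83 (SE 0.23, limma adjusted p = 0.242), in the set where the granulocyte sums were also higher with compound PD. Map1lc3b, which encodes the autophagy protein LC3B, was at -0.45 (SE 0.15, limma adjusted p = 0.318) without overlap, as for 3.71% of genes in that direction. When replicate 1 was left out of both groups, 2.12% of all genes were called with compound PD. Among them Gadd45a and Sqstm1, for a growth arrest protein and an autophagy receptor, rose by 0.50 and 0.55 on the log2 scale (limma adjusted p = 0.0267 and 0.0256).

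Genes of the ATF6 and XBP1 arms of the unfolded protein response, which ATF4 does not lead, were tested as a further list of 20. With compound OB 14 of 20 were above 0 (median 0.04), beside 58.73% of all genes tested (median 0.03). Ern1, the sensor of the XBP1 arm, had 10.7, 12.6 and 11.3 FPKM in compound OB, against 6.48, 6.70 and 8.26 FPKM in OB DMSO (log2 difference 0.62, SE 0.13, limma adjusted p = 0.588). Ern1 rose with the replicate block and median-ratio scaling (limma adjusted p = 0.0319). It also rose without replicate 1 of both groups (limma adjusted p = 1.75e-06), as did Hyou1, Sel1l and Syvn1. These were 4 of 20, in a fit that called 17.8% of all genes, and 15.4% as higher. As for the 10 genes, its p-values draw on a spread shared over genes. There 18 of 20 were above 0 (median 0.08), beside 62.9% of all genes tested (median 0.06). With compound PD 19 of 20 were above 0 (median 0.23), opposite to Atf4, beside 59.07% of all genes tested (median 0.06). With median-ratio scaling 15 of 20 were above 0 (median 0.14), beside 45.94% of all genes tested (median -0.03). Without replicate 1 of both groups 15 of 20 were above 0 (median 0.09), beside 43.33% of all genes tested (median -0.05). Edem1, which sends misfolded glycoproteins to degradation, had 55.2, 43.5 and 46.5 FPKM in compound PD, against 32.6, 30.7 and 31.5 FPKM in PD DMSO. Its groups did not overlap, as for 13.1% of genes tested in that direction (log2 difference 0.59, SE 0.16, limma adjusted p = 0.217). Among bZIP partners and paralogs of the 10 genes, 5 of 9 tested in the OB set and 7 of 11 in the PD set were above 0. Over all genes tested the shares were 58.73% and 59.07%. Cebpa, a C/EBP factor of granulocyte development, was at -0.84 (SE 0.42) with compound OB and 0.40 (SE 0.24) with compound PD, and its difference of effects was -1.23 (SE 0.49, limma adjusted p = 0.818). Nfe2l1, a bZIP factor of proteasome genes, was at -0.35 (SE 0.15) with compound PD, without overlap, as for 3.71% of genes in that direction.

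The 10 genes did not vary as one block. Over the 12 libraries, on log2 values less the DMSO mean of the own set, Pearson's r with the mean of the other 9 genes was 0.96 for Trib3, 0.87 for Ddit3 and 0.83 for Atf5, but 0.53 for Atf4, 0.21 for Asns and 0.10 for Nupr1. Within the 6 libraries of the PD set it was 0.99 for Sesn2 and 0.98 for Trib3, and within the 6 of the OB set 0.23 for Sesn2, 0.90 for Trib3, 0.18 for Atf4, 0.088 for Cebpg, -0.14 for Asns and -0.27 for Nupr1. The genes most like the mean of the 10, of 7182 ranked, were Ampd3 (r = 0.96), Slc25a33 (0.96), Isg20 (0.95), Gclc (0.95) and Fhdc1 (0.94), over the same 12 libraries. Gclc, the catalytic subunit of glutamate-cysteine ligase, had 66.8, 109 and 107.5 FPKM in compound PD, against 149, 81.1 and 82.9 FPKM in PD DMSO, again with replicate 1 at both ends. The points share their libraries and the standing of replicate 1 in the PD set, so the coefficients describe these libraries.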

How the data were processed

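The authors deposited FPKM values per gene and library, 24054 genes a library in one set (OB) and 54752 in the other (PD). Per the submitters' processing notes, the aligner was STAR and the build mm10. No source used here gives the counting program, the annotation or the use of strand, so overlapping and antisense genes are uncertain. FPKM carry no counts, so sequencing depth is unknown and precision is the spread over 3 libraries. Names turned into dates (27 in each set), 430 names of the OB set that were split, repeated or without a numeric value, and 93 repeated entries of the PD set were left out. Ddit3 was one of the repeated symbols, and its entry with the higher mean was kept.

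Each compound was tested against its own DMSO with limma 3.58.1 in R 4.3.3 (mean-variance trend, robust) on log2(FPKM + 1), which understates changes of low genes, keeping genes whose mean over the set was 1 FPKM or more. Two-sided p-values were adjusted by Benjamini-Hochberg over all genes tested, with a threshold of 0.05. The difference of effects was fitted over the 12 libraries with 4 group means. The steps were tested on simulated data. Tables and figures were made with Python 3.11.15, pandas 2.3.3, numpy 2.4.6 and matplotlib 3.10.9.

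Replicate numbers come from the sample titles. For compound OB and OB DMSO, deviations from the group mean correlated between same-numbered libraries at 0.83, 0.43 and 0.65 over 10073 genes, all above 0.1, so the numbers were taken as pairs. Unlike numbers 2 and 3 also correlated, at 0.327 and 0.413, and replicate 1 against 2 or 3 at -0.536 to -0.712. The numbers thus set replicate 1 apart, and hardly tell replicates 2 and 3 from each other. Alternatives were a replicate block, a pseudocount of 0.1, no filter or a mean of 5 FPKM, median-ratio scaling, quantile normalization, limma without trend or robust moderation, and leaving out libraries. All 10 genes are named. From each pathway list, the genes described are among the 3 with the smallest p in each fit, and the genes most like the mean of the 10 are the 5 with the highest Pearson r among genes averaging at least 5 FPKM in both sets. Eif2s3x, Gadd45a and Sqstm1, and the genes given only as called in an added setting, were named after their values were seen. The genes, the lists and the tests were chosen with earlier results of these data known. One marker gene is not reported here, and the marker sums leave it out.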

Additional observations from a re-analysis of the deposited data

Results flagged for a closer look

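Atf4 lay on opposite sides of its controls with the 2 compounds. Each compound OB library was above the OB DMSO mean and each compound PD library below the PD DMSO mean, and the difference of the effects was 0.40 on the log2 scale (SE 0.18, limma adjusted p = 0.895), which did not pass the test. Without replicate 1 of the PD set it was 0.29 (SE 0.16). Atf4 was among genes chosen with earlier results of these data known, so this is a description.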

How the results depend on the processing

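With compound OB, 9 of the 10 genes were above 0 in each setting that kept all libraries, and 8 to 10 when libraries were left out. Genes called over the whole table numbered 0 to 14 with single libraries left out. With the replicate block there were 7, and 1133, 146 and 3 without pair 1, 2 and 3, of which 4, 2 and 0 were among the 10. With block and median-ratio scaling there were 104 (2 of the 10). Leaving replicate 1 out of both groups gave 1773 (4 of the 10).

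For compound PD the sign depended on replicate 1. The numbers did not pair its libraries (correlations of -0.0060, -0.029 and -0.023), and a replicate block called 42 genes against 4 without it, and 201, 71 and 83 without pair 1, 2 and 3, with 8, 2 and 1 of the 10 genes above 0 and 1, 0 and 0 called. With block and median-ratio scaling limma called 0 genes, and 1299 had an unadjusted p under 0.05. Without a filter 1 gene was called and without trend or robust moderation 2. With single libraries left out the calls ran from 1 to 168, and 2 to 7 of the 10 genes were above 0. Without both libraries of replicate 1, 252 genes were called, 2 of them among the 10, and 8 of the 10 were above 0. Without replicate 2 of both groups 1 was called, and without replicate 3 of both groups 1 of the 10 was above 0.

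For the difference, calls ran from 0 to 9 with single libraries left out, and without replicate 1 of the PD set there were 4, with 5 of the 10 genes above 0.

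Signs that turned are given as ranges over single libraries left out. With compound OB they were -0.015 to 0.75 for Sesn2, -0.18 to 0.20 for Ddit4, -0.055 to 0.34 for Asns and -0.12 to 0.21 for Nupr1. With compound PD they were -0.42 to 0.0021 for Ddit3, -0.35 to 0.25 for Trib3, -0.30 to 0.27 for Chac1, -0.32 to 0.22 for Sesn2, -0.52 to 0.18 for Atf5, -0.31 to 0.016 for Cebpg and -0.072 to 0.39 for Nupr1. In the difference it was -0.31 to 0.17 for Nupr1. With pairs left out, with the block or without it, Ddit4 (0.070 without pair 1, 0.013 without pair 3) and Nupr1 (-0.023) turned in the OB set, and Ddit3 (0.13), Trib3 (0.52), Chac1 (0.35), Sesn2 (0.55), Atf5 (0.41) and Cebpg (0.15) without pair 1 and Nupr1 (-0.061) without pair 3 in the PD set. With replicate 1 of the PD set left out, the difference turned for Trib3 (-0.12), Sesn2 (-0.26) and Cebpg (-0.016). The cause was not tested, and with 3 libraries a group and no counts the data cannot say which libraries represent the compound.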
